A study of Mus musculus with 2 samples.

Results

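Nail-associated mesenchyme of the regenerating mouse digit tip was followed here as the barcodes with collagen transcripts, high Sfrp2 and at least 1 transcript of Epha5, Cyp2f2 or Rspo4. A barcode stands for 1 captured cell, and its values are counts of unique molecular identifiers (UMIs), given per 10000 UMIs of that barcode (CP10k). Members were chosen by measured values of these same libraries. The rule took barcodes of 500 genes or more and no more than 10% mitochondrial UMIs in which Col1a1, Col1a2 and Col3a1 together reached 30 CP10k, Sfrp2 reached 10 CP10k, Epha5, Cyp2f2 and Rspo4 together had at least 1 UMI, and Bglap and Bglap2 together stayed under 30 CP10k. This gave 164 nail-associated barcodes of 3777 with collagen transcripts, of 5167 that passed the quality limits and of 11023 deposited. The other 3613 barcodes with collagen at 30 CP10k or more are called the other collagen barcodes.

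The data came from 2 single-cell 3' RNA libraries (10x Genomics), 1 per lineage-tracing line and with no replicate. The Lmx1b library came from Lmx1bCreERT2;R26-LSL-TdT mice and the Pdgfra library from PdgfraCreERT;R26-LSL-TdT mice. Both lines carried the same Rosa26 reporter, which makes the red fluorescent protein tdTomato after tamoxifen-driven recombination in cells that use the driver gene. Mice of both lines, at 10 to 12 weeks, were given 4 daily doses of 3 mg tamoxifen. Digits were cut 10 days after that, and what had regrown past the cut was collected on day 14, dissociated with 280 µg/ml Liberase and used without any sort that the labels describe. The number of animals behind each library was not given, no unamputated digit was sampled, and recombination is meant to reach only cells in which the Cre driver is active. Line and library cannot be told apart, so no difference between the libraries, or within 1 library, carries a test.

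The nail bed and the nail matrix rest on connective tissue of the dorsal digit tip. Lmx1b is a LIM homeodomain transcription factor that sets dorsal identity in the limb, and its loss disturbs nail formation. R-spondins are secreted proteins that amplify Wnt signalling through Lgr receptors, and loss of human RSPO4 leaves the nails absent. Sfrp2 is a secreted frizzled-related protein that modulates Wnt signalling. Epha5 is a receptor for ephrins, and Cyp2f2 is a cytochrome P450.

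The promoters of the 4 genes that chose the nail-associated barcodes are shown because the rule used these genes. It asked for Sfrp2 and for at least 1 UMI of the other 3 together, so not every barcode held all 4. Each window holds 250 bases before and 50 bases after a transcription start of RefSeq (GRCm38.p6), 5′ to 3′ on the gene's strand. The windows are chr3:83766071-83766370 (plus strand) for Sfrp2, chr5:84417333-84417632 (minus strand) for Epha5, chr7:27119705-27120004 (plus strand) for Cyp2f2 and chr2:151842677-151842976 (plus strand) for Rspo4. Capitals mark TAATTA, the core bound by many homeodomain proteins, which reads the same on both strands.
Sfrp2: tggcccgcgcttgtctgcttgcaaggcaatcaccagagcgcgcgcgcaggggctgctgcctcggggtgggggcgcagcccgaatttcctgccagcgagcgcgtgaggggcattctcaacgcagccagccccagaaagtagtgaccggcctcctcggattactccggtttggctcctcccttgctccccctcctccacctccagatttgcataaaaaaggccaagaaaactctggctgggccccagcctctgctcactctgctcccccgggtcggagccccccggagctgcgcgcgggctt
Epha5: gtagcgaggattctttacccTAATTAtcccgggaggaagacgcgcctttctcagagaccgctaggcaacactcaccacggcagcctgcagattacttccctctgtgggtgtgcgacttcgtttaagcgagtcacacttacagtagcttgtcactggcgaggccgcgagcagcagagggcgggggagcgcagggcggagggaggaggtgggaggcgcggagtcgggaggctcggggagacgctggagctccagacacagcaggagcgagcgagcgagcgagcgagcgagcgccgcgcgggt
Cyp2f2: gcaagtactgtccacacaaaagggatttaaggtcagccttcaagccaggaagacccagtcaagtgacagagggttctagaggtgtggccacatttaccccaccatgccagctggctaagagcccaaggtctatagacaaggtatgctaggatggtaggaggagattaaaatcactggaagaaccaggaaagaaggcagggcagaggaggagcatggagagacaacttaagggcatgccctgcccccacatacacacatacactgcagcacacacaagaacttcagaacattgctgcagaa
Rspo4: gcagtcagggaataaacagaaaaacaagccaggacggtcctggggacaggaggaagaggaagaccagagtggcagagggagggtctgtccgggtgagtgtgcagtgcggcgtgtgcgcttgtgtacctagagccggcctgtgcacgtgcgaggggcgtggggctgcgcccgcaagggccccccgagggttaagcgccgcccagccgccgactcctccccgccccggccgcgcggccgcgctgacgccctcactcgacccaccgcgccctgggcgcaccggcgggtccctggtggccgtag
The motif TAATTA began at position -230 from the start of Epha5, and these letters were not in the other 3 windows. The letters TATAAA, searched on both strands and able to share end letters with TAATTA, were in none of the 4 windows. TAATTA was in 3.14% of 573 windows of genes that were 2-fold higher in nail-associated barcodes in both libraries, in 3.99% of 476 windows of genes 2-fold lower in both, and in 2.45% of 10613 windows of measured genes. TATAAA was in 9.95%, 12.0% and 6.98% of the same windows.

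The Lmx1b library held 47 nail-associated barcodes, 2.45% of its 1921 collagen barcodes (95% Clopper-Pearson interval 1.80 to 3.24%). The Pdgfra library held 117, or 6.30% of 1856 (5.24 to 7.51%). Intervals throughout cover counting error only, not the spread between cells or animals. Median depth was 21542 UMIs in nail-associated barcodes against 18550.5 UMIs in other collagen barcodes of the Lmx1b library, and 15694 against 5449 UMIs in the Pdgfra library. The wider gap in depth in the Pdgfra library raises the chance of seeing a rare transcript in its nail-associated barcodes. Only 3 nail-associated barcodes of the Lmx1b library but 24 of the Pdgfra library had under 5000 UMIs. The libraries shared 10 barcode sequences, and 1 nail-associated barcode of each library was among them.

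The Lmx1b library also mixed barcodes that differ in Xist, the RNA that coats the inactive X chromosome of female cells. A Xist UMI was in 16 of its 47 nail-associated barcodes (34.0%), against 57 of its 1874 other collagen barcodes (3.04%). Of the Pdgfra library, 3 of 117 and 66 of 1739 had one. A UMI of a Y-linked gene was in 25 of the 31 nail-associated barcodes of the Lmx1b library without Xist and in 2 of the 16 with it. The labelled share of nail-associated barcodes of the Lmx1b library, and the counts of genes that differ with the label, are therefore also given without the barcodes that had Xist. The labelled shares by Sfrp2 level include them.

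Sfrp2 itself ranged widely among the barcodes it chose. In the Lmx1b library it lay between 10.1 and 415 CP10k with a median of 81.0 and quartiles of 42.1 and 180, and in the Pdgfra library between 10.1 and 267 CP10k with a median of 46.8 and quartiles of 27.7 and 85.6. Few barcodes lay near the limit of 10 CP10k. Between 10 and 12 CP10k were 3 nail-associated barcodes of the Lmx1b library and 5 of the Pdgfra library, and just outside, between 8 and 10 CP10k with 1 of the 3 other genes, were 1 and 8. Another 20 and 22 collagen barcodes reached the Sfrp2 limit without a UMI of Epha5, Cyp2f2 or Rspo4, and their median depths were 9899 and 1817 UMIs.

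Summed over barcodes and given scaled to 1000000 UMIs (CPM), Sfrp2 stood at 12383 CPM in nail-associated barcodes against 42.5 CPM in other collagen barcodes of the Lmx1b library, and at 5639 against 71.2 CPM in the Pdgfra library. Epha5 stood at 798 against 3.16 CPM and at 893 against 13.2 CPM in the same order. Cyp2f2 stood at 419 against 1.27 CPM and at 868 against 10.3 CPM, and Rspo4 at 166 against 0.622 CPM and at 190 against 4.23 CPM. These 4 values describe the choice of barcodes and are no finding. All 3 of Epha5, Cyp2f2 and Rspo4 were detected in 18 of the 47 nail-associated barcodes of the Lmx1b library and in 61 of the 117 of the Pdgfra library. Those with 1 of the 3 numbered 9 and 27, and in the Pdgfra library their median depth was 2345 UMIs, against 17858 UMIs where all 3 were seen.

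Apod, Corin and Lmx1b were outside the rule but on the marker list that goes with the name of the group. Apod, a lipocalin that binds lipids, stood at 7024 CPM in nail-associated barcodes against 259 CPM in other collagen barcodes of the Lmx1b library, 27.1-fold higher (26.3 to 28.0), and at 11230 against 580 CPM in the Pdgfra library, 19.4-fold higher (18.99 to 19.76). Every nail-associated barcode had Apod, at 7.43 to 222 CP10k (median 64.4) in the Lmx1b library and at 1.11 to 432 CP10k (median 104) in the Pdgfra library. Corin, a membrane serine protease known from the hair dermal papilla, stood at 117 against 0.995 CPM and at 105 against 2.30 CPM, 118-fold (81.5 to 173) and 45.4-fold higher (34.5 to 60.6). Corin was detected in 22 of 47 and in 57 of 117 nail-associated barcodes, so it was a frequent but not a general marker. All 3 genes were high in both libraries. They were taken as markers with earlier results of these data known, so their levels describe the group and do not check its name.

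Lmx1b (chr2:33560965-33640511, minus strand, GRCm38) stood at 35.3 CPM in nail-associated barcodes against 0.697 CPM in other collagen barcodes of the Lmx1b library, 50.7-fold higher (29.96 to 86.5). For the Pdgfra library the values were 85.6 against 4.36 CPM, 19.6-fold higher (15.6 to 24.8). A Lmx1b UMI was found in 22 of 47 nail-associated barcodes (46.8%, 32.1 to 61.9%) against 25 of 1874 other collagen barcodes (1.33%) of the Lmx1b library. In the Pdgfra library it was found in 79 of 117 (67.5%, 58.2 to 75.9%) against 83 of 1739 (4.77%). Endothelial barcodes, which should lack the gene, had a Lmx1b UMI in 2 of 744 cases (0.269%) in the Lmx1b library and in 12 of 502 (2.39%) in the Pdgfra library, at median depths of 12860.5 and 8872.5 UMIs. Thinned to 5000 UMIs each, 4 of 44 nail-associated barcodes (9.09%, 2.53 to 21.7%) against 2 of 1370 others (0.146%) kept a Lmx1b UMI in the Lmx1b library, and 33 of 93 (35.5%, 25.8 to 46.1%) against 13 of 882 (1.47%) in the Pdgfra library. Thinning left out 3 and 24 nail-associated barcodes and 504 and 857 others. At equal depth endothelial barcodes had the UMI in 0 of 651 and in 2 of 316 cases. Detection was thus above the endothelial background in both libraries, and at equal depth lower in the Lmx1b library. Driver line and library cannot be told apart there. Within the Lmx1b library a Lmx1b UMI was in 11 of 16 nail-associated barcodes with Xist (51.5 CPM) and in 11 of 31 without it (24.9 CPM). Their median depths were 24646.5 and 20707 UMIs. The part of the Xist barcodes in the difference between the libraries was not tested.

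Nail-associated barcodes carried the lineage label more often than other collagen barcodes in both libraries, and in the Lmx1b library nearly all other collagen barcodes did not carry it. Labelled means tdTomato at 1600 CPM or more, a limit taken from earlier work on these data. In the Lmx1b library 28 of 47 nail-associated barcodes were labelled (59.6%, 44.3 to 73.6%) against 50 of 1874 other collagen barcodes (2.67%, 1.99 to 3.503%). In the Pdgfra library 108 of 117 were labelled (92.3%, 85.9 to 96.4%) against 841 of 1739 (48.4%, 46.0 to 50.7%). These 2 groups differed in depth, with medians of 15694 against 5449 UMIs, and the part of depth in the gap was not tested. At 3200 CPM the labelled shares of the Lmx1b and Pdgfra libraries were 53.2% against 1.01% and 68.4% against 23.9%. At 800 CPM they were 59.6% against 5.66% and 94.0% against 60.4%. At 1 UMI the Lmx1b library gave 91.5% against 64.8%, so that single tdTomato UMIs did not tell the groups apart as well as the higher limits did. Thinned to 5000 UMIs each, a tdTomato UMI was in 32 of 44 nail-associated barcodes against 517 of 1370 others of the Lmx1b library. In the Pdgfra library it was in 93 of 93 against 783 of 882. Endothelial barcodes held tdTomato at 246 CPM in the Lmx1b library and 2223 CPM in the Pdgfra library, against 197 and 2252 CPM in other collagen barcodes. Of the 502 in the Pdgfra library 76 had a Pdgfra UMI, and the source of their tdTomato was not tested.

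Label and no label were clearly apart within the nail-associated barcodes of the Lmx1b library. The 28 labelled barcodes held tdTomato at 1780 to 7620 CPM (median 4872) and the 19 unlabelled ones at 0 to 451 CPM (median 102), with none between. The 9 unlabelled nail-associated barcodes of the Pdgfra library held 0 to 1371 CPM at a median depth of only 1242 UMIs, and all 93 nail-associated barcodes of that library with at least 5000 UMIs were labelled. Among nail-associated barcodes of the Lmx1b library, 13 of the 16 with Xist were labelled (81.3%) against 15 of the 31 without it (48.4%), while 1 of 57 other collagen barcodes with Xist was labelled. The labelled share without the Xist barcodes therefore remained above that of the other collagen barcodes.

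**Figure D1:**
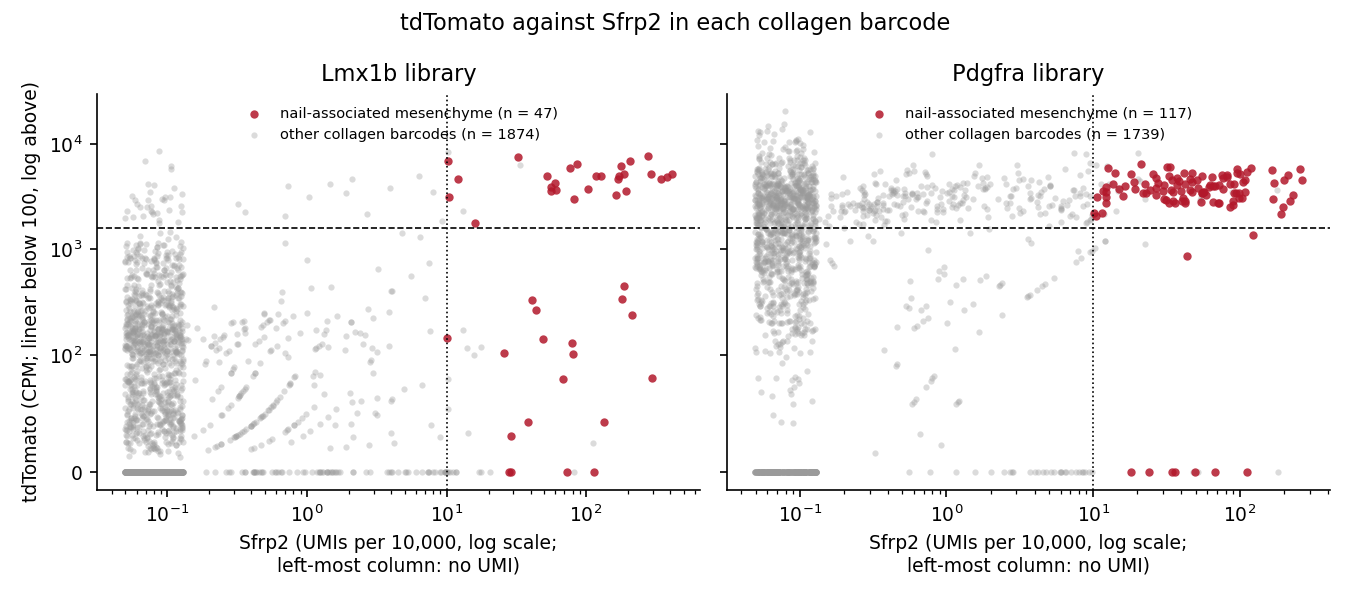
Sfrp2 (CP10k) and tdTomato (CPM) of every collagen barcode, on logarithmic axes (barcodes without Sfrp2 in the left-most column, tdTomato linear below 100 CPM), with the Lmx1b library on the left and the Pdgfra library on the right. Nail-associated barcodes are coloured over the other collagen barcodes in grey, and lines mark 10 CP10k and 1600 CPM. In the Lmx1b library 28 of 47 nail-associated barcodes lie above the label line and the other 19 lie at or under 451 CPM.

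Across collagen barcodes ordered by Sfrp2, the labelled share of the Lmx1b library was highest in the bins of most Sfrp2, with a dip at 20 to 50 CP10k. Sfrp2 was used to choose the nail-associated barcodes, and tdTomato was not. Of 1555 collagen barcodes of the Lmx1b library without Sfrp2, 2.19% were labelled. The share was 6.38% at 1 to 5 CP10k (94 barcodes), 10.7% at 5 to 10 (28 barcodes), 27.3% at 10 to 20 (22 barcodes), 18.2% at 20 to 50 (11 barcodes), 61.5% at 50 to 100 (13 barcodes) and 68.2% at 100 CP10k or more (22 barcodes). In the Pdgfra library 42.1% of the 1353 barcodes without Sfrp2 were labelled, at a median depth of 3525 UMIs. The share was 74.7% under 1 CP10k (median depth 36313 UMIs), 65.8% at 1 to 5, 64.4% at 5 to 10, and between 85.7% and 94.9% in each bin from 10 CP10k upwards, so that it did not rise steadily with Sfrp2. A Lmx1b UMI was in 0.836% of barcodes without Sfrp2 and in 50% of those at 100 CP10k or more in the Lmx1b library, and in 2.37% and 63.6% in the Pdgfra library. Barcodes without Sfrp2 include shallow ones and other cell types with collagen, whose part in the trend was not tested.

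**Figure D2:**
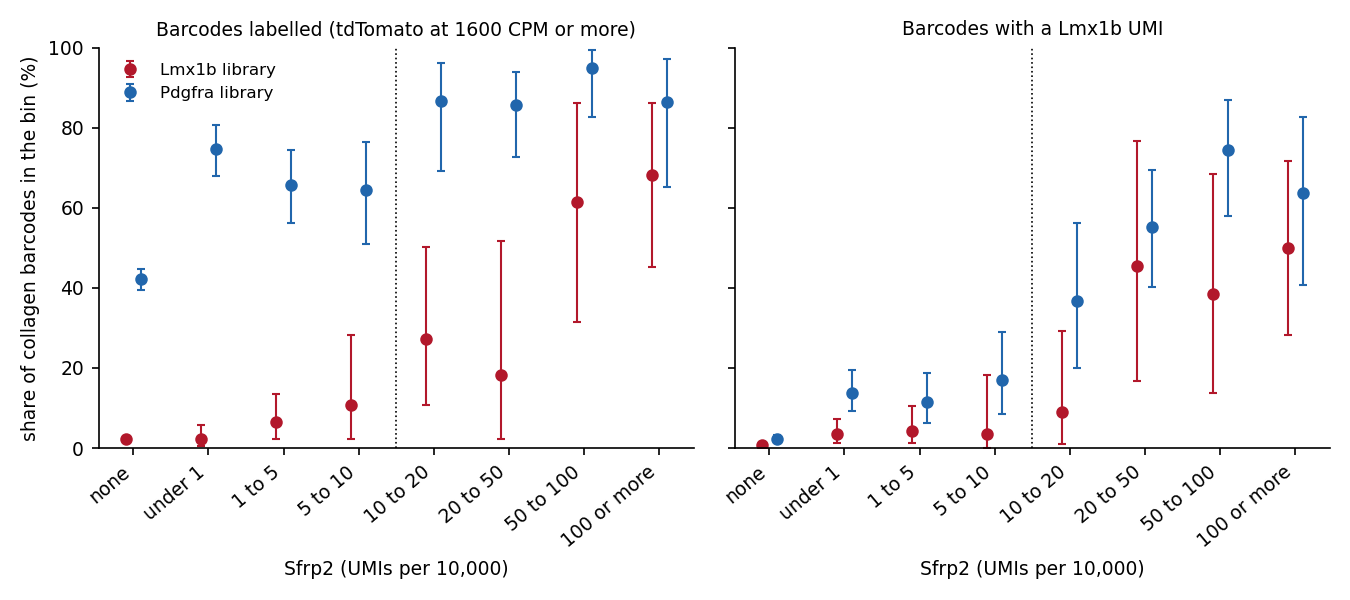
Percent of collagen barcodes that were labelled (tdTomato at 1600 CPM or more) and percent with a Lmx1b UMI, by Sfrp2 in CP10k, in each library, with exact 95% binomial intervals as bars. In the Lmx1b library the labelled percent is 2.19 without Sfrp2 and 68.2 in the highest bin.

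Over all genes, 1151 of 10295 measured genes of the Lmx1b library were at least 2-fold higher in nail-associated barcodes than in other collagen barcodes (11.2%) and 865 were at least 2-fold lower (8.4%). In the Pdgfra library 785 of 10409 were higher (7.54%) and 664 lower (6.38%). Measured means a mean of at least 5 CPM over both sides, and the 2-fold limit was set on log2(CPM + 1), which understates the change of low genes. Of the 10029 genes measured in both libraries, 595 were higher in both (5.93%), 491 lower in both (4.9%) and 3 went opposite ways (0.0299%). Both libraries were divided by the same rule, so agreement between them is in part set by it. These counts describe the chosen barcodes, and no test was made from cells.

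The leading genes outside the rule were taken as the 16 highest and 12 lowest by the smaller of the libraries' log2 differences. Dio3, which inactivates thyroid hormone, stood at 143 CPM in nail-associated barcodes against 1.19 CPM in other collagen barcodes of the Lmx1b library and at 131 against 0.846 CPM in the Pdgfra library, 120-fold (85.9 to 170) and 155-fold (103 to 244) higher. Pcsk2, a prohormone convertase, stood at 163 against 0.174 CPM and at 101 against 0.643 CPM. Pappa2, which cleaves IGF-binding proteins, stood at 250 against 2.79 CPM and at 287 against 10.1 CPM. The long noncoding RNA Gm26771 was the most general of them, at 385 against 2.11 CPM and at 334 against 4.50 CPM, and was detected in 45 of 47 and in 101 of 117 nail-associated barcodes. It is annotated as antisense (chr3:83773853-83789956, minus strand, GRCm38) and overlaps the 3' end of Sfrp2 (chr3:83766321-83774316, plus strand). How the counting used strand was not given in the sources used here, so its UMIs may include reads of Sfrp2, and its level is not independent of the rule.

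Further leading genes encode proteins of the cell surface and the matrix. Cntn1, a contactin that joins neurons, stood at 200 CPM in nail-associated barcodes against 2.02 CPM in other collagen barcodes of the Lmx1b library and at 107 against 2.81 CPM in the Pdgfra library. Cntn5, a further contactin, stood at 64.6 against 0.473 CPM and at 101 against 1.01 CPM. Gpm6a, a membrane glycoprotein of neurons, stood at 173 against 2.59 CPM and at 240 against 6.09 CPM. Spock3, a matrix proteoglycan, stood 840-fold (397 to 2126) and 103-fold (67.1 to 165) higher, Sorcs3, a sorting receptor, 203-fold (93.6 to 502) and 75.3-fold (41.3 to 148) higher, and Slc4a10, a bicarbonate transporter, 185-fold (80.4 to 498) and 69.1-fold (41.3 to 122) higher. Nrg2, a neuregulin that binds ERBB receptors, was 59.8-fold (47.1 to 76.2) and 28.2-fold (23.7 to 33.6) higher, and the noncoding RNA Snhg11 66.1-fold and 27.2-fold higher.

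A few leading values rested on single barcodes. Sst, the somatostatin precursor, stood at 160 against 0.0746 CPM and at 152 against 0.507 CPM, but its UMIs lay in 1 and in 2 nail-associated barcodes, 1 of which held 100% and 99.4% of them. Without that barcode the log2 difference of Sst in the Lmx1b library was -0.10. Gpha2, a glycoprotein hormone subunit, stood at 167 against 1.27 CPM and at 184 against 4.26 CPM, with 78.3% and 35.1% of its UMIs in 1 barcode. Of the genes called higher, 24 of 1151 in the Lmx1b library and 6 of 785 in the Pdgfra library had at least 50% of their UMIs in 1 nail-associated barcode.

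The lowest genes included several known from bone and joints. Mmp13, a collagenase of bone and cartilage, stood at 4.04 CPM in nail-associated barcodes against 422 CPM in other collagen barcodes of the Lmx1b library and at 6.62 against 160 CPM in the Pdgfra library, 105-fold (40.8 to 384) and 24.1-fold (14.4 to 44.2) lower. Prg4, the lubricant of joint surfaces, stood at 3.03 against 165 CPM and at 10.4 against 121 CPM. Col10a1, the collagen of hypertrophic cartilage, stood at 1.01 against 59.5 CPM and at 3.31 against 55.3 CPM. Dmp1 and Phex, genes of osteocytes, were 20.4-fold (6.98 to 99.1) and 48.7-fold (8.72 to 1923) lower in the Lmx1b library and 27.0-fold (7.46 to 224) and 15.4-fold (6.57 to 47.5) lower in the Pdgfra library. The acute-phase gene Saa3 stood at 1.01 against 161 CPM and at 0 against 15.5 CPM, at least 10.9-fold lower in the Pdgfra library by a floor of 3 UMIs over the group. The protease inhibitor Slpi stood at 10.1 against 208 CPM and at 5.68 against 99.2 CPM. Thbs4, a tendon thrombospondin, and Prss50, a serine protease, had 0 UMIs in nail-associated barcodes of both libraries, at least 4.42-fold and 5.40-fold lower in the Lmx1b library and at least 10.1-fold and 7.99-fold lower in the Pdgfra library.

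The remaining 3 of the lowest genes mark cells of other types. Cldn5, a tight-junction protein of endothelium, stood at 1.01 against 23.9 CPM and at 1.89 against 50.9 CPM, Heyl, a Notch target of mural cells, at 2.02 against 44.6 CPM and at 1.89 against 32.6 CPM, and S100a9, a neutrophil alarmin, at 3.03 against 46.6 CPM and at 0.946 against 27.9 CPM. Other collagen barcodes also held more pericyte and smooth muscle markers than nail-associated barcodes did. The summed level was 420 CPM in nail-associated against 3950 CPM in other barcodes of the Lmx1b library, and 715 against 3664 CPM in the Pdgfra library. The same held for cartilage markers, at 316 CPM in nail-associated against 4462 CPM in other barcodes of the Lmx1b library and at 1094 against 3365 CPM in the Pdgfra library. With barcodes that held 10 CP10k or more of another type's markers left out of both sides, S100a9 changed sign (log2 0.64 and 0.54 in the 2 libraries), as did Cldn5 in the Pdgfra library (0.09), while 570 genes were higher and 384 lower in both libraries. This left 41 nail-associated and 579 other collagen barcodes of the Lmx1b library, and 101 and 418 of the Pdgfra library. Osteoclast markers were not used to leave barcodes out. Their summed level was 891 CPM in nail-associated against 778 CPM in other barcodes of the Lmx1b library, and 519 against 717 CPM in the Pdgfra library. At least 2 UMIs of them were in 45 of 47 against 1295 of 1874 barcodes, and in 97 of 117 against 925 of 1739. Gene by gene, 0 of 3 measured osteoclast markers were higher and 1 lower in the Lmx1b library (log2 -4.23 to 0.34). In the Pdgfra library 0 of 3 were higher and 0 lower (-0.82 to -0.45).

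**Figure D3:**
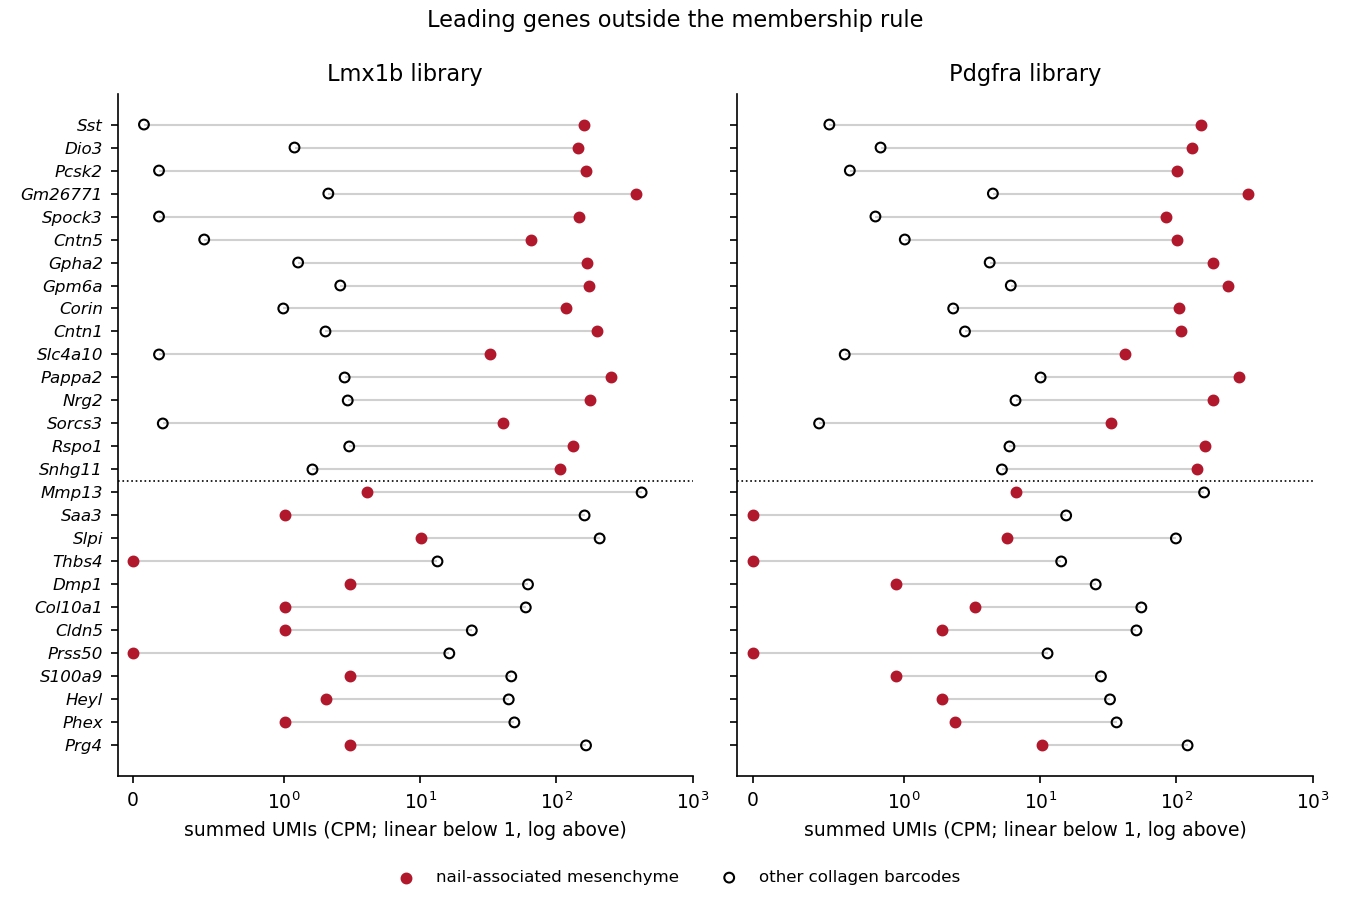
Summed level (CPM, linear below 1 and logarithmic above) of the 16 highest and 12 lowest genes outside the rule, in nail-associated barcodes (filled) and other collagen barcodes (open), with the Lmx1b library on the left and the Pdgfra library on the right. Dio3, for example, lies at 143 against 1.19 CPM in the Lmx1b library, and Sst rests on 1 and 2 barcodes.

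Genes tied to nail mesenchyme were higher together. Of the nail mesenchyme list, 8 of 11 measured genes were 2-fold higher and 0 lower in the Lmx1b library (median log2 2.35, or 2.24 without Rspo4, which was in the rule), against a median of 0.18 over all measured genes. In the Pdgfra library 10 of 12 were higher and 0 lower (2.42, or 1.65 without Rspo4, against 0.085). Lmx1b, Rspo4, Rspo1, Msx1, Corin, Rspo3, Crabp1 and Bmp5 were higher in both. Msx1, a homeobox factor needed for fetal digit tip regeneration, stood at 1684 CPM in nail-associated barcodes against 383 CPM in other collagen barcodes of the Lmx1b library and at 1189 against 377 CPM in the Pdgfra library, 4.39-fold (4.17 to 4.62) and 3.15-fold (3.02 to 3.29) higher. Wif1, a secreted Wnt inhibitor, was under the 2-fold limit at 546 against 339 CPM and 375 against 262 CPM.

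Rspo1 and Rspo3, outside the rule, were higher in both libraries, and no Lgr receptor was. Rspo1 stood at 133 CPM in nail-associated barcodes against 3.01 CPM in other collagen barcodes of the Lmx1b library and at 163 against 5.95 CPM in the Pdgfra library, 44.2-fold (34.3 to 57.1) and 27.4-fold (22.8 to 33.1) higher. Rspo3 stood at 268 against 36.5 CPM and at 248 against 26.4 CPM, 7.34-fold and 9.41-fold higher. Rspo2 was low throughout, at 6.05 against 0.473 CPM in the Lmx1b library, under the minimum, and at 15.1 against 0.372 CPM in the Pdgfra library, 40.7-fold higher (20.0 to 89.4). Among the receptors Lgr5 stood at 5.04 against 13.9 CPM and 4.26 against 22.8 CPM, and Lgr6 at 1.01 against 21.0 CPM and 4.26 against 16.2 CPM, both lower, and Lgr4 at 19.2 against 31.0 CPM and 18.9 against 24.1 CPM, under the limit. The receptor calls were not stable. Under limits of 1000 genes and 5% mitochondrial UMIs the log2 difference of Lgr5 was -0.70 in the Lmx1b library but 0.27 in the other, and without barcodes that held markers of other cell types Lgr6 (-1.01) had too few UMIs for a call in the Pdgfra library.

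The Wnt genes divided by member rather than moving as 1 group. Of the ligands and receptors, 6 of 20 were higher and 5 lower in the Lmx1b library and 3 of 18 higher and 4 lower in the Pdgfra library. Wnt11, a ligand, stood at 85.8 CPM in nail-associated barcodes against 7.12 CPM in other collagen barcodes of the Lmx1b library and at 33.1 against 4.53 CPM in the Pdgfra library, and Wnt5a at 276 against 107 CPM and at 298 against 146 CPM. Wnt16 went the other way, at 1.01 against 54.9 CPM and at 5.68 against 64.1 CPM. Among secreted antagonists Dkk2 was higher, at 384 against 31.5 CPM and at 244 against 66.1 CPM, whereas Frzb, at 1.01 against 122 CPM and 15.1 against 79.6 CPM, and Dkk1, at 1.01 against 32.4 CPM and 11.8 against 28.7 CPM, were lower. Of 13 measured Wnt targets 6 were higher and 4 lower in the Lmx1b library, against 5 higher and 2 lower in the Pdgfra library, with the feedback genes Axin2 (25.2 against 7.69 CPM and 24.6 against 11.4 CPM) and Nkd1 (81.7 against 20.3 CPM and 74.7 against 23.3 CPM) higher in both.

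Several BMP ligands and the activin antagonist follistatin were higher in both libraries. Bmp4 stood at 208 CPM in nail-associated barcodes against 30.9 CPM in other collagen barcodes of the Lmx1b library and at 187 against 46.6 CPM in the Pdgfra library. Bmp2 stood at 196 against 34.2 CPM and at 185 against 46.3 CPM, and Bmp7 at 41.4 against 2.09 CPM and at 20.3 against 2.10 CPM. Fst stood at 1335 against 66.6 CPM and at 1209 against 102 CPM, 20.0-fold (18.7 to 21.4) and 11.8-fold (11.2 to 12.5) higher. Over the whole BMP and activin list 7 of 26 genes were higher and 4 lower in the Lmx1b library and 9 of 26 and 3 in the Pdgfra library, at medians of 0.36 and 0.40. The BMP target Id4 was lower, at 19.2 against 68.0 CPM and at 22.7 against 59.6 CPM, and Id1, Id2 and Id3 did not pass the limit in the Lmx1b library.

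Growth factor and hedgehog genes also divided by member. Pdgfra, the gene whose Cre line made 1 of the libraries, stood at 376 CPM in nail-associated barcodes against 102 CPM in other collagen barcodes of the Lmx1b library and at 375 against 101 CPM in the Pdgfra library. Fgf7 and Fgf10, ligands that act on epithelium, were 2-fold higher in both, Fgf10 at 63.6 against 10.4 CPM and 48.7 against 21.9 CPM. The ligands Pdgfa, Pdgfb and Pdgfc were lower in both. The hedgehog co-receptors Gas1 (1008 against 168 CPM and 696 against 187 CPM), Cdon (101 against 19.3 CPM and 63.4 against 20.2 CPM) and Boc (80.7 against 19.3 CPM and 56.8 against 17.7 CPM) were higher in both, whereas the receptor and target Ptch1 was lower in the Lmx1b library at 47.4 against 120 CPM and under the limit in the Pdgfra library at 60.1 against 92.3 CPM.

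Limb transcription factors were higher or lower by member. Of the limb patterning list 11 of 31 were higher and 4 lower in the Lmx1b library and 13 of 32 higher and 7 lower in the Pdgfra library. Alx4, an aristaless-related homeobox factor, stood at 118 CPM in nail-associated barcodes against 8.88 CPM in other collagen barcodes of the Lmx1b library and at 69.5 against 12.1 CPM in the Pdgfra library. Shox2 stood at 72.6 against 4.65 CPM and at 71.4 against 10.3 CPM. Pitx1 and Tbx4, factors of the hindlimb, were higher in both, Pitx1 at 147 against 16.8 CPM and at 115 against 15.1 CPM. The distal genes Hoxa13 (55.5 against 36.0 CPM and 55.3 against 33.8 CPM) and Hoxd13 (33.3 against 33.9 CPM and 34.5 against 29.6 CPM) did not pass the limit. Irx5 was lower at 3.03 against 56.1 CPM and at 4.73 against 56.9 CPM, Irx3 and Tbx18 were lower in both, and En1, a ventral limb factor, had 0 UMIs in nail-associated barcodes of both libraries and 0.771 and 1.39 CPM in the others, under the minimum.

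Genes known from the hair dermal papilla, the mesenchyme that instructs the hair follicle, were higher along with those of the nail. Of that list 10 of 14 were higher and 1 lower in the Lmx1b library (median 2.01) and 11 of 15 higher and 1 lower in the Pdgfra library (1.504), with Corin, Crabp1, Rspo2 and Rspo3 on both lists. Vcan, a large matrix proteoglycan, stood at 1350 CPM in nail-associated barcodes against 127 CPM in other collagen barcodes of the Lmx1b library and at 1779 against 152 CPM in the Pdgfra library. It varied between nail-associated barcodes, with a median of 6.999 CP10k (0 to 65.7) in the Lmx1b library and 13.9 CP10k (0 to 92.4) in the Pdgfra library. Sox2, a factor of some hair papillae, was at 0 CPM against 2.21 CPM and at 0.473 against 5.62 CPM. Dermal fibroblast genes were mixed, with 7 of 17 higher and 2 lower in the Lmx1b library and 5 of 16 higher and 2 lower in the Pdgfra library.

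Most measured enzymes of detoxification and metal reduction were higher. Of that list 15 of 25 were higher and 3 lower in the Lmx1b library (median 1.39) and 15 of 24 higher and 3 lower in the Pdgfra library (1.82), and 14 were higher in both, 1 of them Cyp2f2 of the rule. Steap1, of a family of metalloreductases, stood at 409 CPM in nail-associated barcodes against 12.0 CPM in other collagen barcodes of the Lmx1b library and at 348 against 17.6 CPM in the Pdgfra library, 34.1-fold (29.8 to 39.0) and 19.8-fold (17.6 to 22.1) higher. Steap2 stood at 512 against 23.3 CPM and at 488 against 40.8 CPM, and the ferric reductase Cybrd1 at 302 against 10.1 CPM and at 224 against 13.9 CPM. Of the alcohol and aldehyde dehydrogenases, Adh7 stood at 249 against 11.1 CPM and at 283 against 14.3 CPM, and Aldh3a1 at 142 against 8.18 CPM and at 104 against 5.45 CPM. Glutathione transferases Gstm1, Gstt1 and Gsta4 and the microsomal Mgst1 were higher in both. Gpx3, a secreted glutathione peroxidase, was lower at 247 against 1256 CPM and at 385 against 1000.0 CPM, as was Fmo2.

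Retinoic acid and Eph genes were higher in part. Crabp2, a retinoic acid carrier, stood at 266 CPM in nail-associated barcodes against 52.3 CPM in other collagen barcodes of the Lmx1b library and at 307 against 37.5 CPM in the Pdgfra library, and Cyp26b1, which degrades retinoic acid, at 299 against 43.2 CPM and at 142 against 50.3 CPM. Of the retinoic acid list 7 of 14 were higher and 2 lower in the Lmx1b library and 5 of 12 and 2 in the Pdgfra library. Epha7 followed Epha5, at 67.6 against 1.64 CPM and at 44.5 against 4.47 CPM, and the ligand Efnb2 stood at 148 against 22.9 CPM and at 138 against 38.5 CPM. Of the Eph and ephrin list 9 of 17 were higher and 1 lower in the Lmx1b library and 5 of 16 higher and 0 lower in the Pdgfra library.

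Guidance and neuropeptide genes went both ways. Ntrk2, a receptor for the neurotrophin BDNF, stood at 494 CPM in nail-associated barcodes against 24.3 CPM in other collagen barcodes of the Lmx1b library and at 281 against 25.7 CPM in the Pdgfra library, and the repellent Sema3a at 83.7 against 1.64 CPM and at 109 against 4.09 CPM. The galanin gene Gal was lower at 4.04 against 120 CPM and at 12.8 against 71.9 CPM. Of 22 measured genes 8 were higher and 8 lower in the Lmx1b library, against 6 higher and 9 lower in the Pdgfra library. Cck, the cholecystokinin precursor, stood at 216 against 13.5 CPM and at 420 against 11.4 CPM and was detected in 11 and 55 nail-associated barcodes.

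Of 11 measured insulin-like growth factor genes 4 were higher and 2 lower in the Lmx1b library and 6 were higher and 1 lower in the Pdgfra library. Igfbp5 stood at 11986 CPM in nail-associated barcodes against 1177 CPM in other collagen barcodes of the Lmx1b library and at 11073 against 1125 CPM in the Pdgfra library. It was among the most variable genes between nail-associated barcodes, with a median of 107 CP10k (quartiles 29.6 and 171) in the Lmx1b library and 109 CP10k (59.1 and 170) in the Pdgfra library. Igf2 stood at 254 against 17.2 CPM and at 368 against 29.9 CPM. Igfbp2 and Igfbp4 were higher in both and H19, the noncoding RNA beside Igf2, was lower, at 10.1 against 29.7 CPM and at 8.51 against 39.9 CPM.

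Bone genes were lower. Of the osteogenic list 0 of 14 were higher and 12 lower in the Lmx1b library (median -4.74) and 0 of 14 higher and 13 lower in the Pdgfra library (-2.97). Bglap and Bglap2 were limited by the rule. Ibsp, a matrix protein of mineralising tissue, stood at 345 CPM in nail-associated barcodes against 16277 CPM in other collagen barcodes of the Lmx1b library and at 1649 against 14392 CPM in the Pdgfra library, with 66.1% and 47.3% of the UMIs of nail-associated barcodes in 1 of them. Without barcodes high in Bglap among the others, the medians were -3.33 and -2.11. Runx2 was 1.99-fold (1.57 to 2.55) and 1.67-fold (1.43 to 1.95) lower, under the 2-fold limit.

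Of the matrix list 9 of 43 were higher and 18 lower in the Lmx1b library and 7 of 42 higher and 19 lower in the Pdgfra library. Col1a1, which the rule used as part of a minimum, stood at 9460 CPM in nail-associated barcodes against 48517 CPM in other collagen barcodes of the Lmx1b library and at 11097 against 31149 CPM in the Pdgfra library. The higher matrix genes were Vcan, Tnxb, Dcn, Col23a1, Lama2 and Fbln1 in both libraries. Tnxb, a tenascin of dermis and tendon, stood at 182 against 8.16 CPM and at 130 against 12.0 CPM. Tnmd, known from tendon, was higher at 412 against 20.7 CPM and at 563 against 35.9 CPM, whereas the tendon and cartilage genes Comp (189 against 3674 CPM and 548 against 2509 CPM) and Chad were lower, and Scx was under the limit at 70.6 against 58.6 CPM and 61.5 against 74.9 CPM. The cartilage and mural markers given above moved with these lists. With barcodes of another type's markers left out, the osteogenic list had 0 higher and 13 lower of 14 in the Lmx1b library and 0 higher and 14 lower of 14 in the Pdgfra library.

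Genes of the digit tip blastema were more often lower than higher, and those of the cell cycle were lower or did not pass the limit. Of 12 blastema genes 2 were higher and 5 lower in the Lmx1b library (median -0.70) and 2 higher and 8 lower in the Pdgfra library (-1.14). Cthrc1, a secreted matrix protein, stood at 217 CPM in nail-associated barcodes against 748 CPM in other collagen barcodes of the Lmx1b library and at 177 against 596 CPM in the Pdgfra library. Gldn was the exception, at 261 against 53.9 CPM and at 218 against 97.1 CPM. Of 18 measured cell cycle genes 0 were higher and 14 lower in the Lmx1b library and 0 higher and 8 lower in the Pdgfra library. Mki67, a marker of cycling cells, stood at 2.02 against 32.3 CPM and at 9.46 against 30.1 CPM, and Top2a at 0 against 43.7 CPM and at 16.1 against 42.6 CPM. At least 2 UMIs of 6 cell cycle genes were in 1 of 47 nail-associated barcodes (2.13%) against 213 of 1874 others (11.4%) of the Lmx1b library, and in 8 of 117 (6.84%) against 171 of 1739 (9.83%) of the Pdgfra library. Thinned to 5000 UMIs the numbers were 0 of 44 against 89 of 1370 and 2 of 93 against 58 of 882.

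Values of genes that respond to dissociation stand beside these lists. Of 15 stress genes 3 were higher and 1 lower in the Lmx1b library and 6 higher and 0 lower in the Pdgfra library. Fos stood at 826 CPM in nail-associated barcodes against 434 CPM in other collagen barcodes of the Lmx1b library and at 2184 against 725 CPM in the Pdgfra library. The chemokines Cxcl12 (1304 against 320 CPM and 533 against 161 CPM) and Cxcl14 (1329 against 423 CPM and 864 against 223 CPM) and complement C3 were higher in both, and Ptgs2 and Ccl11 lower in both. Their part in the other differences was not tested.

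Some single calls rested on barcodes that carried markers of other cell types. With those barcodes left out of both sides, the nail mesenchyme list had 9 of 11 genes higher and 0 lower in the Lmx1b library and 9 of 12 higher and 0 lower in the Pdgfra library, and the detoxification list 16 of 25 higher and 5 lower and 16 of 23 higher and 2 lower. The cell cycle list had 0 of 17 higher and 12 lower, and 1 of 17 higher and 7 lower. Wnt5a no longer passed in either library (log2 0.91 and 0.39), nor did Fbln1 (0.21 and 0.48), Pdgfa (-0.90 and -0.95), Pdgfb (-0.34 and -0.69) and Ptgs2 (-0.68 and -0.87). In the Lmx1b library the calls of Dcn (0.70), Cxcl14 (0.51), H19 (-0.34), Ptch1 (-0.86) and Id4 (-0.9988) ended. In the Pdgfra library those of Gldn (0.34), Fgf10 (0.067), Lama2 (0.78), Axin2 (0.83), Crabp1 (0.93), Igfbp4 (0.96), Tbx4 (0.91), Col10a1 (-0.38), Gal (-0.74) and Fmo2 (-0.78) ended. Atf3 (-0.90) and Pi16 (0.94) no longer passed in the Lmx1b library. Col10a1 (-2.87) and Cldn5 (-1.05) in the Lmx1b library, and Prss50 (-2.48) and Ccl11 (-2.11) in the Pdgfra library, had too few UMIs for a call. Under limits of 1000 genes and 5% mitochondrial UMIs, which left 24 and 20 nail-associated barcodes, Gpha2 (1.32 and 0.11) had too few UMIs or too small a difference in both libraries, and Cyp26b1 (0.17), Igfbp2 (0.36), Fgf10 (0.12), Id4 (-0.40), Mki67 (-0.71) and Top2a (-0.47) no longer passed in the Pdgfra library, nor did Dcn (0.68) in the Lmx1b library. Bmp7 (1.71), Ccl11 (-3.23) and Xist (-1.82) in the Pdgfra library, and Cldn5 (-3.37) and Pdgfb (-2.64) in the Lmx1b library, then had too few UMIs for a call.

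**Figure D4:**
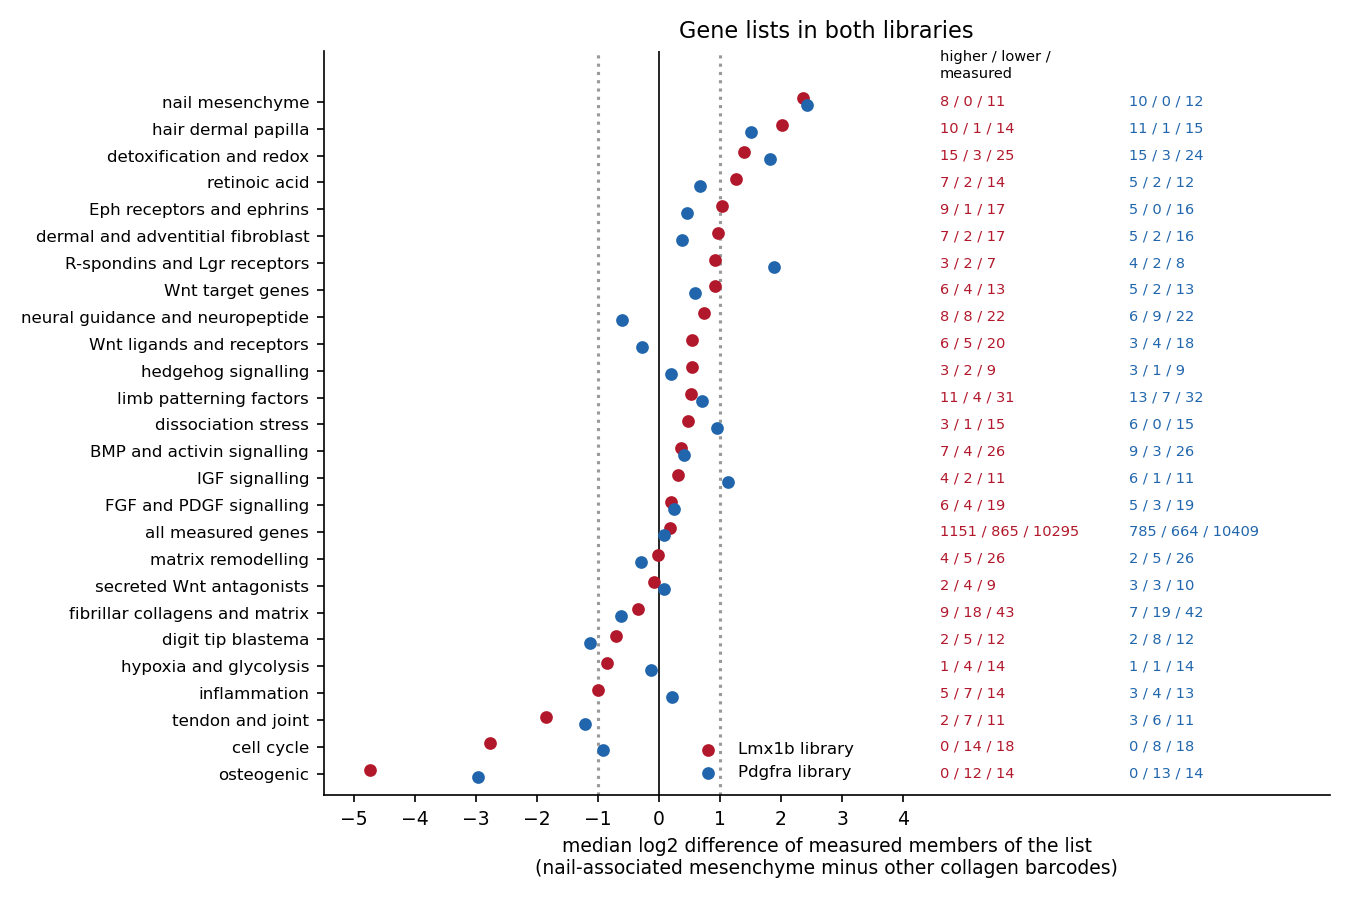
Median log2 difference (nail-associated minus other collagen barcodes) of the measured genes of each list, with the numbers higher, lower and measured at the right, for the Lmx1b library and the Pdgfra library. Nail mesenchyme lies highest at 2.35 and 2.42 and osteogenic genes lowest at -4.74 and -2.97, with all measured genes at 0.18 and 0.085.

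Labelled and unlabelled nail-associated barcodes were compared within the Lmx1b library. Of 6222 genes at 20 CPM or more, 208 were higher (3.34%) and 170 lower (2.73%) in the 28 labelled than in the 19 unlabelled barcodes, and of the nail mesenchyme list 1 of 11 was higher and 0 lower, too few genes to read against those shares. Without the Xist barcodes 344 genes were higher and 351 lower. Lmx1b was detected in 11 of 28 labelled and in 11 of 19 unlabelled barcodes, at 31.1 and 40.4 CPM. Corin was detected in 14 of 28 and in 8 of 19, Cyp2f2 in 19 of 28 and in 5 of 19, and median Sfrp2 was 111 CP10k in labelled and 68.3 CP10k in unlabelled barcodes. Cyp2f2 and Sfrp2 helped to choose the barcodes.

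Many of the genes that led this comparison came from single barcodes. Of the genes higher in labelled barcodes, Col2a1 (475 against 53.9 CPM) had 93.8% of its UMIs in 1 labelled barcode and Gap43 (93.4 against 0 CPM) 90.2%. Genes lower in labelled barcodes were spread over more of them. Fndc1 stood at 93.4 CPM in labelled against 436 CPM in unlabelled barcodes and Nrep at 18.3 against 115 CPM, and Fhl1 at 5.50 against 83.1 CPM was detected in 3 of 28 labelled and 11 of 19 unlabelled barcodes. Of 9 measured blastema genes 0 were higher and 3 lower in labelled barcodes, namely Mest (25.7 against 135 CPM), Gldn (156 against 391 CPM) and Cthrc1 (110 against 348 CPM). Over all genes of this comparison 3.34% were higher and 2.73% lower, and 9 genes are too few to read against those shares. Fst (1775 against 795 CPM), Igfbp2 (823 against 213 CPM) and Inhbb (97.1 against 26.9 CPM) were higher. A Xist UMI was in 13 of the 28 labelled and 3 of the 19 unlabelled barcodes, and the values of these single genes include them.

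Nail-associated barcodes of the 2 libraries were also set side by side. Of 6240 genes at 20 CPM or more, 81 were higher (1.3%) and 96 lower (1.54%) in the Lmx1b library. Of the nail mesenchyme list 0 of 11 were higher and 1 lower, which was Lmx1b at 35.3 CPM in the Lmx1b library against 85.6 CPM in the Pdgfra library, 2.42-fold lower (1.68 to 3.59). Of 15 dissociation stress genes 0 were higher and 8 lower, with Atf3 at 8.07 against 67.2 CPM, Nr4a1 at 36.3 against 163 CPM and Fos at 826 against 2184 CPM. Xist stood at 265 against 2.37 CPM, and Pi16, a gene of adventitial fibroblasts, at 71.6 against 7.10 CPM. Dlk1, a membrane protein of the Notch ligand family, stood at 50.4 CPM against 0 CPM, but in only 3 barcodes. Ibsp (345 against 1649 CPM) and Acan (26.2 against 220 CPM), genes of bone and cartilage, were lower. Line, library and animals cannot be told apart in these differences.

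Nail-associated barcodes were also divided by whether they had a UMI of Dkk2. The split was chosen after the data had been seen, and only barcodes of at least 5000 UMIs entered it. Dkk2 was detected in 16 of 44 nail-associated barcodes of the Lmx1b library and in 31 of 93 of the Pdgfra library. The genes that differed most between barcodes with and without Dkk2 were picked in the Pdgfra library, as means of log2(1 + CP10k), and read in the Lmx1b library. Of 15 genes picked as higher with Dkk2, 12 were higher in the Lmx1b library too, the exceptions being 1500015O10Rik, Fmod and Thbs1. Among those 12, Col12a1 differed by only 0.09 log2 units. The summed level of Gldn was 256 CPM with and 264 CPM without Dkk2 in the Lmx1b library. Of 15 picked as lower, 13 were lower there too, the exceptions being Plpp3 and Rspo3. The medians in the Lmx1b library were 0.51 and -0.65 log2 units, against 0.04 over all 3170 measured genes, of which 57.8% were higher with Dkk2.

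Tnmd and Wif1 were among the genes higher with Dkk2 in both libraries. On that log2 scale Tnmd averaged 2.49 with Dkk2 and 1.31 without it in the Lmx1b library, and 3.18 with and 1.87 without it in the Pdgfra library. Wif1 averaged 2.56 with and 1.24 without Dkk2 in the Lmx1b library, and 2.49 with and 1.21 without it in the Pdgfra library. Fmod, a proteoglycan of tendon, went opposite ways, at 180 CPM with and 791 CPM without Dkk2 in the Lmx1b library and at 1337 CPM with and 372 CPM without it in the Pdgfra library. Barcodes without Dkk2 were higher in Vcan, at 2.73 with and 3.57 without Dkk2 in the Lmx1b library and 2.40 with and 4.36 without it in the Pdgfra library, and in Igfbp5, at 5.45 and 6.50 and at 5.28 and 7.20. Epha5, a gene of the rule, averaged 2.06 with and 2.56 without Dkk2 in the Lmx1b library, and 1.19 with and 3.49 without it in the Pdgfra library. Sfrp2, also of the rule, went opposite ways. It stood at 15518 CPM with and 10632 CPM without Dkk2 in the Lmx1b library, and at 3662 CPM with and 7153 CPM without it in the Pdgfra library. Lmx1b stood at 33.8 CPM with and 36.4 CPM without Dkk2 in the Lmx1b library, with UMIs in 7 of 16 and 15 of 28 barcodes. Its level in the Pdgfra library was 51.8 CPM with and 110 CPM without Dkk2, 2.13-fold lower with it, with UMIs in 26 of 31 and 48 of 62 barcodes. The label was on 8 of 16 barcodes with and 17 of 28 without Dkk2 in the Lmx1b library. Every barcode of the split was labelled in the Pdgfra library, so that no difference could appear there. Dkk2 was not limited to nail-associated barcodes, since 23.4% and 36.1% of other collagen barcodes of that depth also had it.

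**Figure D5:**
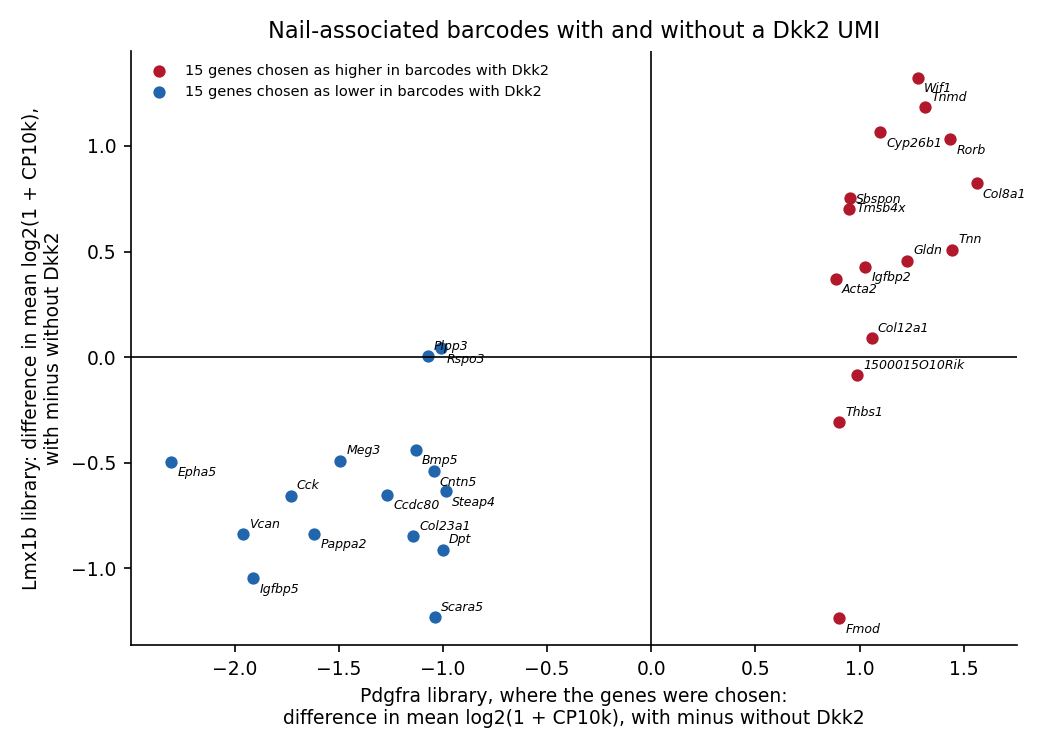
Difference in mean log2(1 + CP10k) between nail-associated barcodes with and without Dkk2, in the Pdgfra library, where the 30 genes were picked, and in the Lmx1b library, where they were read. Of the genes higher with Dkk2, 12 of 15 lie on the same side in the Lmx1b library, and of those lower 13 of 15.

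Another part of the mesenchyme was set beside the nail-associated barcodes, without a measure of how alike the 2 are. It was taken as the collagen barcodes with Mest and Gldn, genes of the digit tip blastema, at 1 CP10k or more each. They numbered 53 and 62 in the Lmx1b and Pdgfra libraries. Of these 10 (18.9%, 9.44 to 32.0%) and 47 (75.8%, 63.3 to 85.8%) were labelled, and 7 (13.2%) and 16 (25.8%) had a Lmx1b UMI, at median depths of 30709 and 28228 UMIs, above those of nail-associated barcodes. In both libraries 479 of 9890 genes were 2-fold higher (4.84%) in nail-associated than in Mest and Gldn barcodes and 366 lower (3.7%). Within 1 library, the measure used for the lists below, more genes passed. These were 1091 of 10261 measured genes higher and 910 lower in the Lmx1b library, and 789 of 10344 higher and 562 lower in the Pdgfra library. Of the nail mesenchyme list 8 of 11 were higher and 0 lower in the Lmx1b library and 8 of 12 and 0 in the Pdgfra library, and of the detoxification list 16 of 24 higher and 2 lower, and 17 of 23 higher and 1 lower. Corin stood at 117 CPM in nail-associated against 3.07 CPM in Mest and Gldn barcodes of the Lmx1b library and at 105 against 7.91 CPM in the Pdgfra library, and Lmx1b at 35.3 against 4.30 CPM and at 85.6 against 13.7 CPM. Of 19 cell cycle genes 0 were higher and 16 lower, and 1 higher and 14 lower. Mki67 stood at 2.02 against 96.4 CPM in the Lmx1b library and at 9.46 against 44.3 CPM in the Pdgfra library, and Cthrc1 at 217 against 1272 CPM and at 177 against 750 CPM. No test of these differences was possible with 1 library per line.

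Collagen barcodes with Bglap and Bglap2 at 30 CP10k or more, the genes of the osteoblast protein osteocalcin, numbered 163 and 27 in the Lmx1b and Pdgfra libraries, and the rule kept them apart from nail-associated barcodes. In both libraries 1283 of 9521 genes were 2-fold higher (13.5%) in nail-associated barcodes than in these and 327 lower (3.43%). A Lmx1b UMI was in 0 of 163 and in 2 of 27 of them, and 3 (1.84%) and 15 (55.6%) were labelled.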

How the data were processed

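Raw UMI counts per gene and barcode, deposited by the authors, were the starting values, and came from Cell Ranger (version 4.0.0, per the file headers), run on an mm10 genome that included tdTomato, per the labels' protocols. How barcodes were kept as cells before deposit is not given in the sources used here. The Lmx1b library held 66867027 UMIs over 5991 barcodes and the Pdgfra library 49084751 UMIs over 5032 barcodes. Of these, 1504 and 1410 had under 500 genes and 2785 and 2219 had over 10% mitochondrial UMIs. Members and gene lists were chosen with earlier results of these data known.

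UMIs were summed over the barcodes of each group in each library and expressed as CPM, since cells are not replicates. Log2 differences used a pseudocount of 1 CPM, genes needed a mean of 5 CPM (20 CPM within nail-associated barcodes, 50 CPM for the Dkk2 split), and a call meant 2-fold. Fold intervals are exact 95% intervals of a ratio of Poisson counts, and shares have Clopper-Pearson intervals. Barcodes thinned to 5000 UMIs gave depth-matched shares. Endothelial barcodes had at least 3 of 5 markers. Named genes were the 16 highest and 12 lowest in both libraries outside the rule, 8 each way within nail-associated barcodes by interval bound, the genes of the rule, and genes of the lists. In simulated counts the steps recovered most changes larger than 2-fold that were put into genes at 20 CPM or more. Those counts had Poisson error only and no spread between barcodes. The recovery therefore does not bear on calls near the limit, of low genes or carried by few barcodes.

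Doublets were scored with Scrublet in scanpy 1.11.5 and kept. The highest 0.8% per 1000 barcodes, 287 and 203, held 0 and 5 nail-associated barcodes, and Scrublet's automatic threshold, which called 0 and 2 barcodes, had not worked. Of 28001 features 27722 matched GENCODE vM21 (GRCm38), and promoter sequences came from RefSeq (GRCm38.p6). Python 3.11.15, numpy 2.4.6, scipy 1.17.1, pandas 2.3.3 and matplotlib 3.10.9 were used. Alternatives covered the limits on barcodes, Sfrp2, collagen, label and CPM, the pseudocount, doublets, depth, barcodes of other types, Xist and single barcodes.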

Additional observations from a re-analysis of the deposited data

Results flagged for a closer look

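Of the genes measured in both libraries, 3 differed in opposite directions between nail-associated and other collagen barcodes, and the difference between the libraries was not tested. Gdpd2, a glycerophosphodiester phosphodiesterase, had a log2 difference of -4.39 in the Lmx1b library (0 CPM in nail-associated against 20.0 CPM in other barcodes) and of 1.61 in the Pdgfra library (12.3 against 3.35 CPM). Xist had 3.83 in the Lmx1b library (265 against 17.7 CPM) and -1.43 in the Pdgfra library (2.37 against 8.05 CPM). The keratin gene Krt10 had -1.06 in the Lmx1b library (57.5 against 121 CPM) and 1.17 in the Pdgfra library (44.9 against 19.4 CPM).

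The deposited table also held a feature named SSM2GFP that the labels do not explain. It had a UMI in 4 barcodes of the Lmx1b library and in 5 of the Pdgfra library that passed the quality limits, and in 0 of 47 nail-associated barcodes of the Lmx1b library, which allows a share of barcodes with a UMI of up to 6.38%, and in 1 of 117 of the Pdgfra library. The limit is on barcodes with a UMI, not on cells that carry the feature. No control sample gives its background.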

How the results depend on the processing

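No paired analysis was possible because there was 1 library per line and no replicate number. Of the main counts and shares, those not named here moved by less than their interval or by under 1.5 times. With 200 genes and 25% mitochondrial UMIs as limits, nail-associated barcodes were 1.54% and 3.95% of collagen barcodes of the Lmx1b and Pdgfra libraries, and with 1000 genes and 5% they were 3.36% of the Lmx1b library. At 5000 UMIs or more they were 9.54% of the Pdgfra library. The labelled share of the Pdgfra library was 100% under those last settings of 1000 genes and 5% and of 5000 UMIs, and 68.4% at 3200 CPM, and that of the Lmx1b library 91.5% at 1 UMI. Lmx1b detection in the Pdgfra library was 79.6% at 5000 UMIs or more, and thinning gave 9.09% and 35.5% in the Lmx1b and Pdgfra libraries. Genes higher and lower in both libraries were 339 and 233 at 20 CPM, and 867 were lower with no minimum.

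Comparisons within nail-associated barcodes depended most on the settings. Labelled against unlabelled gave 378 higher and 379 lower genes with 1000 genes and 5%, 334 higher with collagen at 100 CP10k, 432 higher with the mean of barcodes' CPM, 888 and 407 with the label at 1 UMI, and 344 and 351 without Xist barcodes. Lmx1b against Pdgfra library gave 332 and 229 with 1000 genes and 5%, 230 higher with the mean of barcodes' CPM, 49 higher with a pseudocount of 5 CPM, and 156 lower without Xist barcodes. The cause was not tested. Fewer barcodes enter under the stricter limits.

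The inflammation median of the Lmx1b library turned to 0.24 with collagen at 100 CP10k and to 0.94 at 20 CPM. Sst turned to -1.07 in the Pdgfra library with 1000 genes and 5%, and to -0.10 in the Lmx1b library without Xist barcodes or without its highest barcode. Lgr5 turned to 0.27 in the Pdgfra library with 1000 genes and 5%. S100a9 turned to 0.17 and 0.52 with collagen at 100 CP10k in the Lmx1b and Pdgfra libraries and to 0.65 in the Pdgfra library at 5000 UMIs. Without barcodes of 10 CP10k of other types' markers, an alternative chosen after seeing the data as were those on Xist and single barcodes, S100a9 turned to 0.64 and 0.54 in the Lmx1b and Pdgfra libraries, and in the Pdgfra library Cldn5 turned to 0.092 and Id4 to 0.48. A limit of 2 UMIs, tried first, left 92 and 110 others at median depths of 1153.5 and 1839.5 UMIs and was replaced for that reason. Xist turned to -4.22 without Xist barcodes by construction. Depth limits the detection of Lmx1b, Corin and other low genes. Over single genes and list medians, 6001 comparisons of a value with its alternative were counted as kept. For a gene this means the same call, so that an uncalled gene that changed sign counts as kept. For a median it means a change of under 1.5 times. The label settings of 800 CPM, 3200 CPM and 1 UMI do not enter these values, so their 278 gene comparisons each were kept by construction. Of the other comparisons, 137 lost a call, 31 gained one, 49 medians moved by more and 14 values reversed.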

Other observations

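A feature named CreERT2, which both lines could carry as the driver transcript, was detected in 1 of 47 nail-associated barcodes against 2 of 1874 other collagen barcodes of the Lmx1b library, and in 9 of 117 (7.69%, 3.58 to 14.1%) against 25 of 1739 (1.44%) of the Pdgfra library. Endothelial barcodes had it in 0 of 744 and in 1 of 502 cases. Thinned to 5000 UMIs, 2 of 93 nail-associated barcodes against 5 of 882 others of the Pdgfra library kept one, so that the share there was read from few UMIs.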
